A study of Mus musculus with 4 samples.

Results

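The cytosolic ribosomal protein genes were taken from the deposited count table by symbol: every row named Rpl or Rps followed by a number, with an optional a, x or y, plus Rpsa, Rplp0, Rplp1, Rplp2 and the paralogs Rpl7l1, Rps27l, Rpl22l1 and Rpl39l. This rule took 80 of the 24421 rows. Of these, 46 encode proteins of the large (60S) subunit, 30 encode proteins of the small (40S) subunit, and 4 are paralogs whose symbols end in l or l1. RNA sequencing had been done on LSK cells, the bone marrow fraction that lacks lineage markers and carries Kit and Sca-1, which holds hematopoietic stem cells and the earliest multipotent progenitors. The control group (WT) held 2 libraries from wild-type littermates and the knockout group (KO) held 2 libraries from Zfp521-/- mice, in which the gene of a zinc finger transcription cofactor is disrupted. The labels name no tissue-restricted deletion, so the other cells of the marrow are taken to carry the knockout as well, which was not measured here. The series title places the gene's action in that surrounding marrow. The labels name neither the age nor the sex of the mice, and they speak of independent RNA samples from cell pools without saying which animals were pooled. All p-values therefore rest on how far these 4 samples spread, and part of that spread may be technical.

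The ribosome is assembled from ribosomal RNA and about equal numbers of copies of each ribosomal protein, so the genes for these proteins are transcribed at high and similar rates in every cell. Their mRNAs begin with a run of C and T, the terminal oligopyrimidine tract, through which the kinase mTOR and the RNA-binding protein Larp1 set their translation and storage. Hematopoietic stem cells keep protein synthesis low and raise it as they divide and differentiate, and loss of a single copy of certain ribosomal protein genes causes Diamond-Blackfan anaemia, a failure of red cell production. When ribosome assembly stalls, free Rpl5 and Rpl11 bind Mdm2 and stabilise p53.

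Library totals ran from 17787425 to 29863594 counts. Zfp521 itself had 1561 and 1429 counts in WT replicates 1 and 2 and 308 and 215 counts in KO replicates 1 and 2, so both knockout libraries were low and neither was at 0. WT replicate 2 had 606 counts of Xist against 160613 to 230977 in the other libraries, and 5606 counts of 4 Y-linked genes against 9 to 14, so the WT group mixed a male and a female pattern. Rn45s, the ribosomal RNA precursor, took 15.3% and 15.7% of the WT counts and 14.6% and 9.37% of the KO counts, and KO replicate 2 stood apart in this. Of the 8 genes of the LSK gate and its subsets, Cd34 was lower in KO and 7 did not pass the test, and the call of Cd34 (adjusted p = 0.041) was lost without either WT library or KO replicate 2 (adjusted p between 0.093 and 0.231). The summed level of the list was 1861 to 1941 CPM in WT and 1881 to 1906 CPM in KO. CPM, the counts-per-million unit, uses library sizes scaled with TMM factors, which align libraries on their shared genes.

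Ribosomal protein mRNAs made up a nearly constant share of the counts when Rn45s was included in the total. They held 6.16% and 6.01% of the WT counts and 6.01% and 5.84% of the KO counts, so the groups overlapped. With Rn45s left out of the total, the shares stood at 7.27% and 7.13% in WT and 7.04% and 6.44% in KO. Both KO libraries then lay below both WT libraries, and KO replicate 2 was the lowest.

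In the knockout, 3 large subunit genes fell and no member rose. They were Rpl7a, Rpl28 and Rpl15. Of the 80 members, 79 had enough reads to be tested, and 76 of these missed the threshold of 0.05 on the adjusted p (quasi-likelihood test of edgeR, Benjamini-Hochberg adjustment over all 14140 genes tested). Of all genes tested 6.78% passed in either direction, with 3.01% lower and 3.77% higher in KO, so the members' 3 lower calls are close to the background share and none of them is a rise. At an unadjusted p under 0.05, 16 of the 79 members passed, against 24.5% of all genes tested, so the members did not exceed that share. In bulk RNA, fewer cells of a kind and less RNA per cell cannot be told apart.

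Rpl7a, a protein of the large subunit, was at 1157 and 934 CPM in WT replicates 1 and 2 and at 699 and 534 CPM in KO replicates 1 and 2. Both KO libraries lay below both WT libraries, but in CPM the step between the groups was only slightly larger than that between the WT libraries. The log2 fold change was -0.76 (SE 0.17, adjusted p = 0.022), a 1.70-fold lower level. Rpl7a lies on chromosome 2 from 26910764 to 26913318 on the plus strand of mm10 and has 8 exons. It had 64 near-copies elsewhere in the genome, the largest number among the members, and 22.8% of its read-length windows occurred at no other gene.

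Rpl28, also of the large subunit, was at 1045 and 899 CPM in WT and at 705 and 574 CPM in KO, again with no overlap. Its log2 fold change was -0.60 (SE 0.15, adjusted p = 0.038). Rpl28 lies on chromosome 7 from 4792874 to 4795066 on the plus strand. Rpl15, a protein mutated in some patients with Diamond-Blackfan anaemia, was at 1713 and 1785 CPM in WT and at 1291 and 1129 CPM in KO. WT replicate 2 was its highest library, and its log2 fold change was -0.53 (SE 0.13, adjusted p = 0.039). Rpl15 lies on chromosome 14 from 18267823 to 18271391 on the minus strand.

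These calls depended on single libraries. Without WT replicate 1 no member passed, and the adjusted p of Rpl7a was 0.202. Without WT replicate 2 or without KO replicate 2, Rpl7a was the 1 member to pass (log2 fold change -0.92 and -0.59). Without KO replicate 1, 15 members were lower, among them the 3 genes above, the 60S stalk gene Rplp1 and the small subunit genes Rps2, Rps15 and Rps26. The calls over all genes moved as well: with either WT library left out, 0.642% (replicate 1) and 0.685% (replicate 2) of genes were lower. With either KO library left out, the shares were 7.88% (replicate 1) and 2.84% (replicate 2), beside the 3.01% with all 4 libraries.

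The sequence around the start sites of the 3 genes is shown because the C and T run there defines the class. Each line gives 15 bases before and 15 bases from the transcription start listed by RefSeq (GRCm38.p6, the assembly of mm10), with the longest run of C or T in capitals. The windows are chr2:26910792-26910821 (plus strand), chr7:4792950-4792979 (plus strand) and chr14:18270972-18271001 (minus strand).
Rpl7a: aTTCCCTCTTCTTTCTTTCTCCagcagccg
Rpl28: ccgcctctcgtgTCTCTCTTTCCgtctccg
Rpl15: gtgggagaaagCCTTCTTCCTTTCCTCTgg
Counted over the whole window, the runs were 21, 11 and 17 bases long. Each began before the listed start, so these are not lengths of the tract in the mRNA. RefSeq start sites were matched for 60 members with 71 listed starts. A run of at least 8 C or T was present in 39.4% of these windows, against 12.0% of the 32851 windows of all genes. In the 300 bases from 250 before to 50 after the start, the motif of the ETS factor GABP (CCGGAAGT, either strand) was found in 16.9% of the member windows and 3.89% of all, and the YY1 motif (AAGATGGC, either strand) in 11.3% and 2.75%. A match of letters is a description and not a binding site, and the reverse complement of the GABP motif itself holds a short stretch of C and T.

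**Figure D1:**
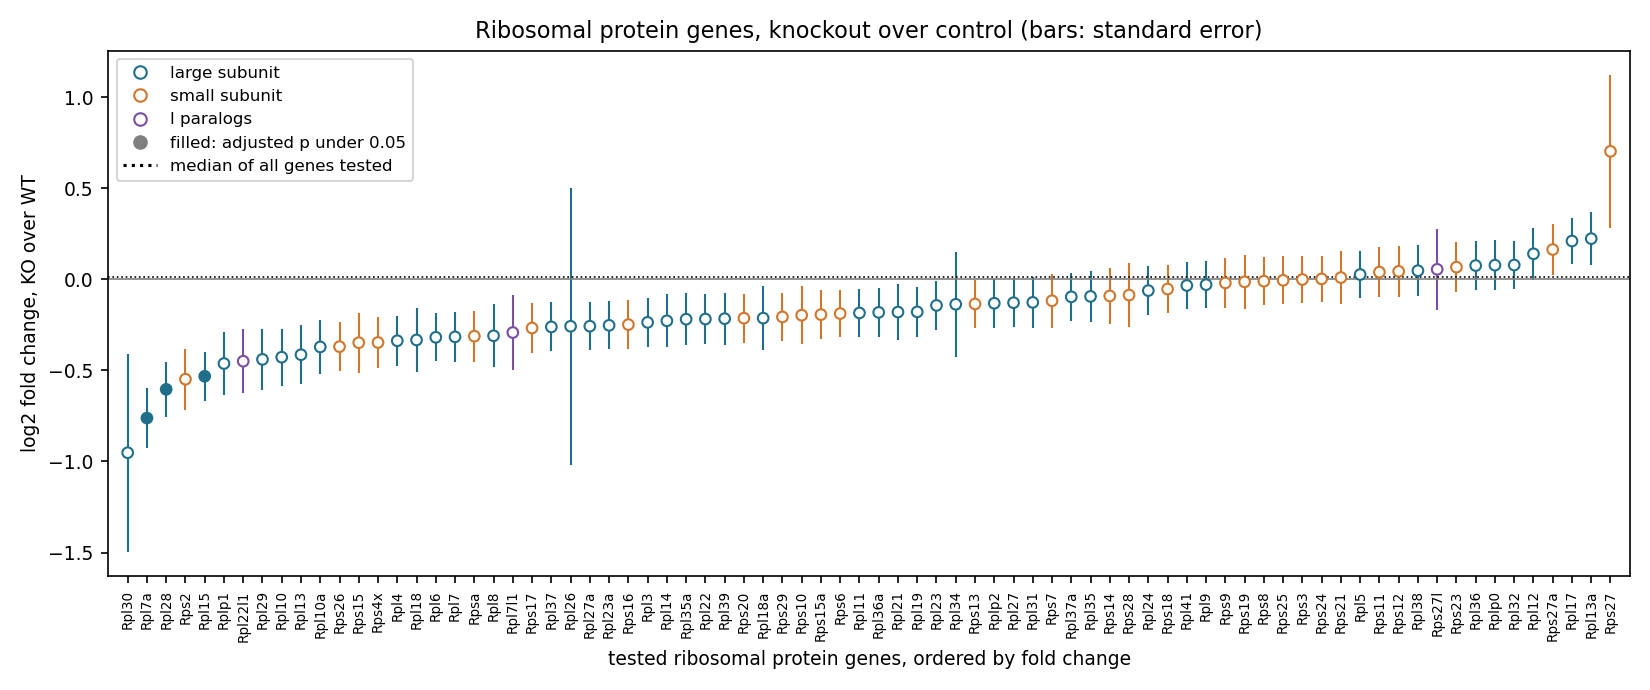
Log2 fold change, KO over WT, of the tested ribosomal protein genes named here, in order of size, with bars for the standard error from edgeR. Filled points (Rpl7a, Rpl28 and Rpl15) passed the test, and most points lie below 0.

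Below the threshold, most members had a slightly negative fold change. Of the 79 tested, 63 were negative, with a median of -0.18 and quartiles of -0.30 and -0.02, beside a median of 0.02 over all genes tested, of which 48.8% were negative. Both KO libraries lay below both WT libraries for 45 members and above them for 4, and 30 overlapped. Over all genes tested these shares were 27.6% below and 28.8% above. The trend of fold change on expression level over all genes was then removed. After this the median of the large subunit was -0.01 and that of the small subunit turned to 0.09, beside 0.02 for all genes. Whether the shift depends on level among the members was not tested.

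Large and small subunit genes were then set side by side. The median log2 fold change was -0.21 over 46 large subunit genes and -0.10 over 30 small subunit genes. Of the large subunit genes 30 lay lower in both KO libraries and 2 higher. Of the small subunit genes 13 lay lower and 2 higher, and none of them passed the test. Over all genes tested, 27.6% lay lower in both KO libraries, 28.8% lay higher, and 3.01% were called lower. The summed counts of the large subunit were 1.75 and 1.69 times those of the small subunit in WT and 1.68 and 1.63 times in KO, with no overlap. The difference in the log2 ratio was -0.06 (KO minus WT, exact permutation test, two-sided, p = 0.333, the smallest p that 2 against 2 libraries can give). The sums were then replaced by the median log2 count over members of each subunit in each library. The difference was then 0.11 in the other direction, so the data give no settled order of the subunits. This median of levels is another measure than the median fold change above, which was lower for the large subunit.

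At the lower end of the fold changes came Rpl30 and Rps2. Rpl30 had the most negative log2 fold change (-0.95, SE 0.54, adjusted p = 0.306), but it had only 128 and 133 counts in WT and 73 and 36 counts in KO. Rps2, a protein at the mRNA entry side of the small subunit, was at 787 and 649 CPM in WT and at 560 and 422 CPM in KO. The groups did not overlap, and the adjusted p was 0.072 (log2 fold change -0.55, SE 0.17). At the upper end came Rps27 (0.70, SE 0.42), Rpl13a (0.22), Rpl17 (0.21), Rps27a (0.16) and Rpl12 (0.14), with adjusted p between 0.328 and 0.580. Rpl13a, which also has a role in repressing inflammatory mRNAs, was at 362 and 382 CPM in WT and at 476 and 394 CPM in KO. Rps27a, made as a fusion with ubiquitin, was at 344 and 381 CPM in WT and at 428 and 384 CPM in KO, with KO replicate 2 close to WT replicate 2.

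The parts of the ribosome listed by role, here and below, showed no call. The lateral stalk, which recruits elongation factors, is formed by Rplp0, Rplp1, Rplp2 and Rpl12. Rplp1 was at 617 and 570 CPM in WT and at 507 and 355 CPM in KO (a log2 fold change of -0.46, adjusted p = 0.122). Rplp0, at 788 and 678 CPM in WT and 764 and 784 CPM in KO, overlapped, as did Rpl12, which was at 629 and 633 CPM in WT and 763 and 628 CPM in KO. Rplp2 was at 667 and 676 CPM in WT and at 648 and 579 CPM in KO (-0.13).

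Of the pair that signals to p53, Rpl5 was at 1743 and 1764 CPM in WT and at 1845 and 1729 CPM in KO, with overlap (a log2 fold change of 0.03). Rpl11 was at 970 and 939 CPM in WT and at 844 and 836 CPM in KO, with no overlap (-0.18, adjusted p = 0.405). Of 8 proteins around the exit of the nascent chain tunnel none was called (median -0.20, range -0.26 to 0.21). Of 14 proteins of the head of the small subunit none was called (median -0.14, range -0.35 to 0.16). Of 20 genes mutated in Diamond-Blackfan anaemia, Rpl15 was lower and 19 were not called (median -0.16).

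The 4 X-linked members all had a negative fold change with no overlap, and none passed. Both KO libraries also lay below both WT libraries for 45 of the 79 tested members and 27.6% of all genes tested. WT replicate 2 had the male pattern, and its part in the X-linked values was not tested. Rps4x was at 2526 and 2062 CPM in WT and at 1838 and 1770 CPM in KO (a log2 fold change of -0.35, adjusted p = 0.156). Rpl10, which completes the tRNA sites of the large subunit, was at 1742 and 1469 CPM in WT and at 1343 and 1046 CPM in KO (-0.43, adjusted p = 0.119). Rpl36a (-0.18) and Rpl39 (-0.22) were closer to 0.

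**Figure D2:**
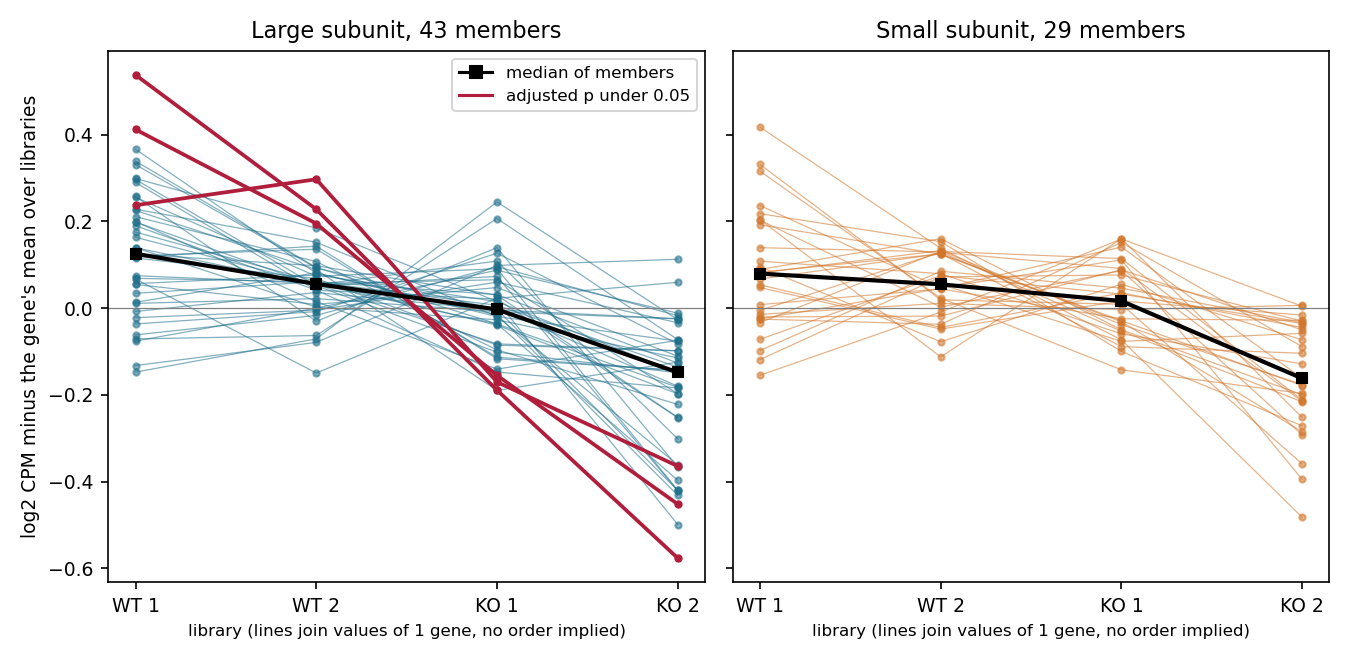
Log2 CPM of each library minus the gene's mean over the 4 libraries, for the 43 large and 29 small subunit members with at least 1000 reads in every library, with the median as black squares and the 3 called genes in red. The medians step down most at KO replicate 2, and the values of the members in KO replicate 1 spread to both sides of 0.

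The 2 KO libraries differed from each other. Among the 72 members with at least 1000 reads in every library, 66 were lower in KO replicate 2 than in KO replicate 1 (median log2 ratio -0.15), and 43 were lower in WT replicate 2 than in WT replicate 1 (median -0.04). Over the 3634 genes of the whole table with that many reads, 1978 were lower in KO replicate 2, with a median of -0.03. The members' step between the KO libraries went with the GC content of their transcripts. Across the 72 members the Spearman correlation of GC with the log2 ratio of KO replicate 2 to KO replicate 1 was -0.61, and with that of the WT libraries -0.22. Over the 3634 genes these were -0.29 and 0.04. The points share libraries and depth, and genes are not independent replicates.

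In the 36 members with the higher GC content (52.5% to 60.8%), the median log2 ratio of KO replicate 2 to KO replicate 1 was -0.28. In the other 36 members (41.3% to 52.4%) it was -0.09. The KO over WT fold change differed little between these groups (median -0.18 and -0.19). Against the WT mean, the members with the higher GC content stood at a median of -0.03 in KO replicate 1 and -0.28 in KO replicate 2, and the others at -0.14 and -0.20. With the trends of fold change on transcript length and GC over all genes removed, the medians were -0.27 for the large and -0.16 for the small subunit.

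**Figure D3:**
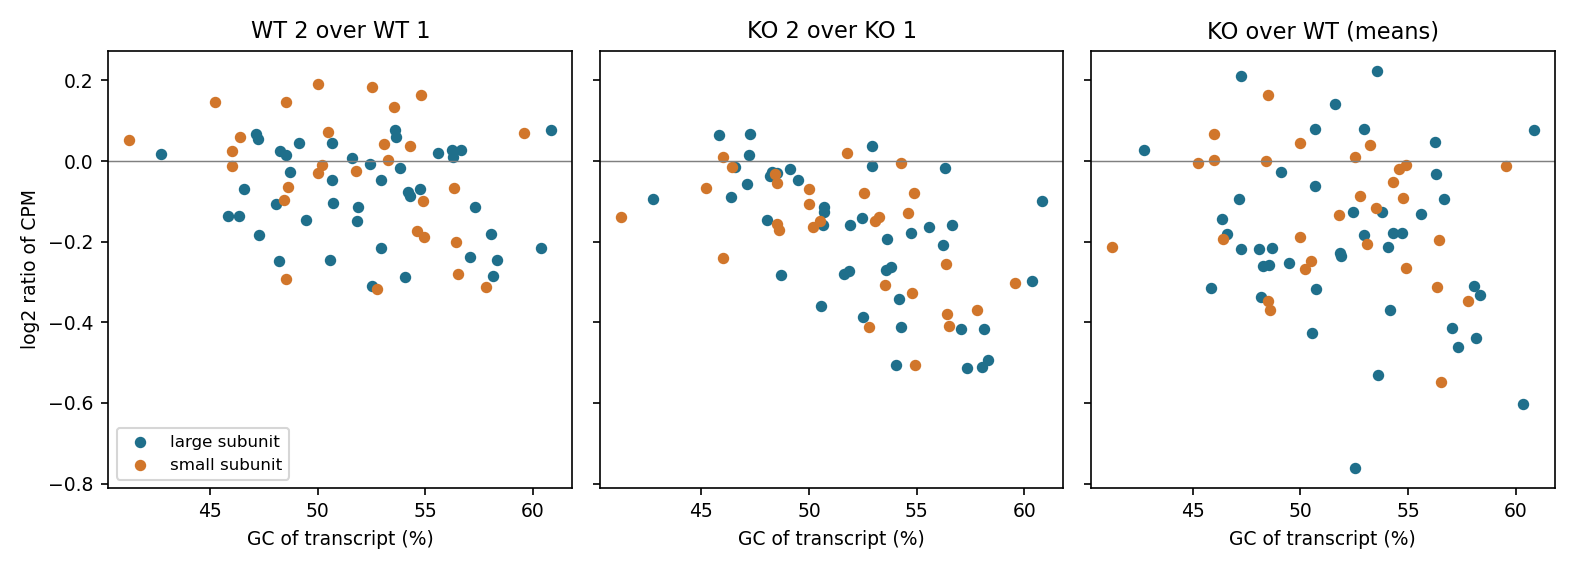
Log2 ratio of CPM against the GC content of the annotated transcript (in percent) for the 72 members with at least 1000 reads in every library: WT replicate 2 over 1, KO replicate 2 over 1, and the mean of KO over the mean of WT. The slope down to the right is clearest between the 2 KO libraries (Spearman -0.61).

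The paralogs ending in l did not pass the test in either direction. Rpl22l1 can take the place of Rpl22 in the ribosome and has been tied to early hematopoietic development. It was at 73.6 and 69.1 CPM in WT and at 54.1 and 50.4 CPM in KO. The groups did not overlap (log2 fold change -0.45, SE 0.18, adjusted p = 0.143). The pseudogene Gm15421, with 60 and 61 reads in WT and 90 and 97 reads in KO, the opposite order to Rpl22l1, shared 232 of the 477 windows of 76 bases in Rpl22l1. Rpl22, the parent gene of Rpl22l1, was at 471 and 414 CPM in WT and at 372 and 389 CPM in KO (-0.22, adjusted p = 0.363). Per 100 reads of Rpl22 there were 15.6 and 16.7 reads of Rpl22l1 in WT and 14.6 and 12.9 in KO. The difference in the log2 ratio was -0.23 (exact permutation test, two-sided, p = 0.333, the smallest possible, and 0.5 adjusted over the 3 pairs that gave a ratio).

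Rpl7l1, whose protein takes part in ribosome assembly, was at 49.5 and 40.8 CPM in WT and at 37.6 and 36.2 CPM in KO (a log2 fold change of -0.29, SE 0.21, adjusted p = 0.411). Its parent Rpl7 was at 504 and 458 CPM in WT and at 378 and 395 CPM in KO (-0.32, adjusted p = 0.181). Neither gene was called. There were 9.82 and 8.91 reads of Rpl7l1 per 100 of Rpl7 in WT and 9.96 and 9.15 in KO. The groups overlapped, and the difference in the log2 ratio was 0.03 (exact permutation test, p = 0.667).

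Rps27l, a target of p53 in other cells, overlapped between the groups. It was at 53.6 and 38.9 CPM in WT and at 53.5 and 42.6 CPM in KO (a log2 fold change of 0.06, SE 0.22, adjusted p = 0.907). Replicate 1 was the higher library in each group. In these counts the paralog exceeded its parent: Rps27 had 126 and 132 counts in WT and 216 and 123 counts in KO, and the ratio of Rps27l to Rps27 was 11.8 and 7.32 in WT and 5.48 and 6.81 in KO. The log2 ratio differed by -0.61 (exact permutation test, p = 0.333), or -0.26 without WT replicate 1 and -0.95 without WT replicate 2.

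Rps27, which had few reads, has a copy of its sequence. Rps27rt, a gene on chromosome 9, has a coding sequence identical to that of Rps27 over all 252 bases, and it is listed at 0 reads in every library. Of 270 windows of 76 bases in the Rps27 transcript, 266 also occur in Rps27rt, so 1.48% are found at Rps27 alone. The first 76 coding bases of Rps27 and of its paralog and copy (GENCODE transcripts, mm10) are shown, with bases that differ from Rps27 in capitals. Rps27 lies at chr3:90212522-90213651 (minus strand), Rps27rt at chr9:114982366-114982739 (minus strand) and Rps27l at chr9:66946086-66949516 (plus strand).
Rps27: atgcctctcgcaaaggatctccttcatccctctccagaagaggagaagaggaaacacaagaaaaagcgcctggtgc
Rps27rt: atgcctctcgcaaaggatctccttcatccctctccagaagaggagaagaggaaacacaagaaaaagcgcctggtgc
Rps27l: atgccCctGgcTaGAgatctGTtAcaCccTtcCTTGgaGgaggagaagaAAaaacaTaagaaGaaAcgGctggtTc
Rps27l differed from Rps27 at 22 of these bases and at 60 of 252 in all (76.2% identity), and 88.4% of its windows were found at no other gene. How reads shared by Rps27 and Rps27rt were counted is not known, so the level of Rps27, and every ratio to it, is uncertain. Rpl10, with the next lowest share of unique windows (8.15%), had 20579 to 48488 counts per library. The part of the copy in the low count of Rps27 was not tested.

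Rpl39l was the 1 member without enough reads to be tested. Its parent Rpl39 lines the tunnel of the nascent chain, and the paralog is best known from the testis. It had no read in either WT library, 29 reads in KO replicate 1 (1.31 CPM) and 2 reads in KO replicate 2. In KO replicate 1 this was at least 10.9-fold above the higher WT limit, taken as 3 counts per library (0.121 CPM), while KO replicate 2 lay under 3 counts. The reads rest on 1 library. All windows of the Rpl39l transcript were unique to it, and Rpl39 was at 689 and 676 CPM in WT and at 645 and 531 CPM in KO. The first 76 coding bases are shown because the 2 genes are close (85.0% identity over 153 bases), with bases that differ from Rpl39 in capitals. Rpl39 lies at chrX:37082520-37085402 (minus strand) and Rpl39l at chr16:10170226-10174911 (plus strand).
Rpl39: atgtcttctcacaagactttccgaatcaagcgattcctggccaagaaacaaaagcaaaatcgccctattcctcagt
Rpl39l: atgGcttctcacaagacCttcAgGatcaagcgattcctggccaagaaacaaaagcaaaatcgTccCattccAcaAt
The other pairs were further apart, at 70.2% identity for Rpl22l1 and Rpl22 and 59.8% for Rpl7l1 and Rpl7.

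**Figure D4:**
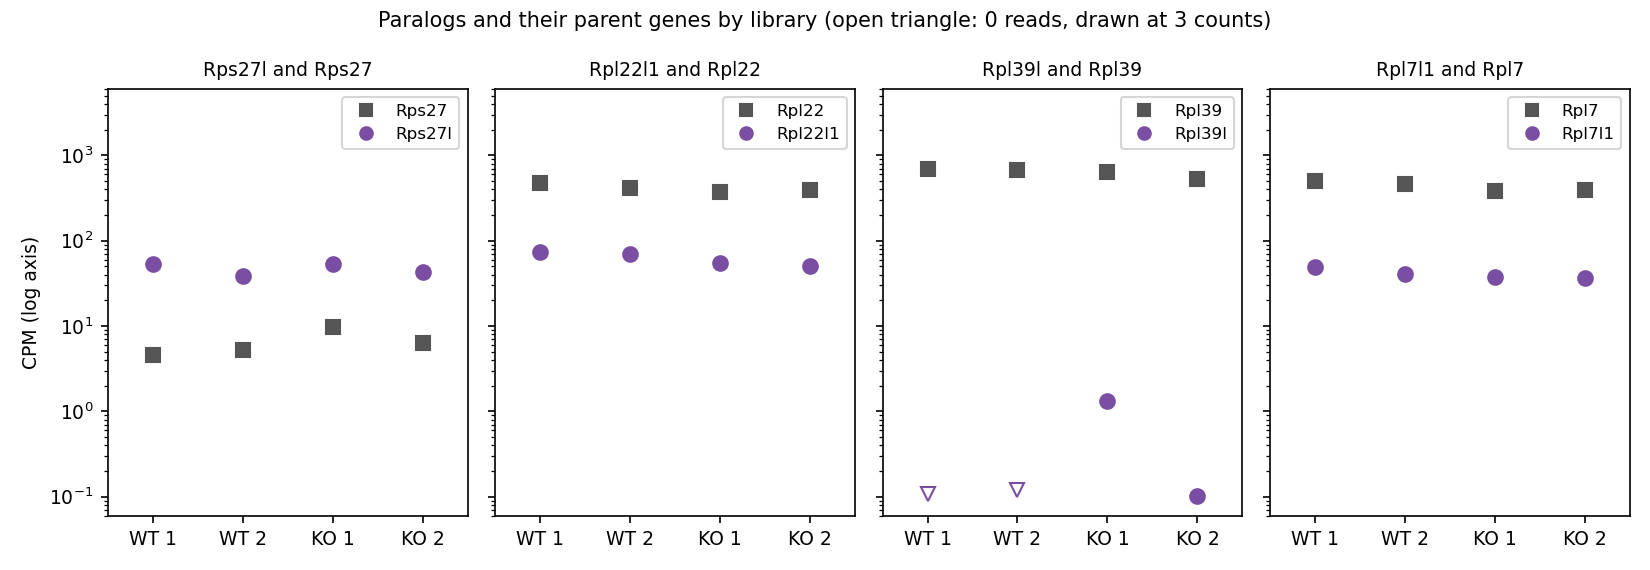
CPM on a log axis of the 4 paralogs (circles) and their parent genes (squares) in each library. Rps27l lies above Rps27 in all 4 libraries, the other 3 paralogs lie below their parents, and open triangles mark the WT libraries without a read of Rpl39l.

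Levels were compared per kb, with the 4 paralogs left out. Per kb of annotated transcript, the 43 large subunit genes with at least 1000 reads in every library lay between 339 and 2698 CPM per kb (median 1019), and the 29 such small subunit genes between 185 and 2132 CPM per kb (median 949). The highest of the large subunit were Rpl31 (2698 CPM per kb), Rpl10a (2453) and Rpl32 (2385). The highest of the small subunit were Rps25 (2132 CPM per kb), Rps6 (2128), the target of the S6 kinase, and Rps4x (2102). Within each of these trios the levels lay close together. Rps20 came out low at 185 CPM per kb with an annotated model of 3706 bases. Per kb of coding sequence it stood at 1917 CPM, and Rps3, at 480 CPM per kb of transcript, stood at 1257 CPM.

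Among the members other than the paralogs, 4 genes lay below these ranges: Rpl26, Rpl30, Rpl34 and Rps27. The paralogs were also low, with Rpl22l1 at 112, Rps27l at 94.5, Rpl7l1 at 31.3 and Rpl39l at 0.642 CPM per kb. Rpl26 had 43, 43, 28 and 29 counts in WT replicates 1 and 2 and KO replicates 1 and 2, or 2.86 CPM per kb on average. Rpl34 had 426, 423, 358 and 260 counts. These levels were low in WT and KO alike. For Rpl26, 43.5% of windows were unique and the pseudogene Gm15772 shared 211 of 451 windows and was listed at 0 reads. For Rpl30, 60.2% were unique, and the pseudogene Gm12191, which shared 197 of 495 windows, had 144 to 267 reads per library. For Rpl34, 59.0% were unique, and Rpl34-ps1 was listed at 0 reads.

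Sequence copies are a general feature of this gene family. Of the 80 members, 77 shared at least 1 window of 76 bases with another gene, with 701 such gene pairs in all, 667 of them with pseudogenes. The median share of unique windows was 52.1% in the large and 50.3% in the small subunit, against 100% over all genes tested with a matched transcript. The share of unique windows was lower at higher levels: across the 72 well-counted members its Spearman correlation with CPM per kb was -0.39. Over the 3634 genes this correlation was -0.23. The level per kb rests on the annotated transcript length, and the part of length in this was not tested. Across the 72 members the correlation of the share with the fold change was 0.12. The members with at least 50% of their windows unique had a median log2 fold change of -0.21 in the large and -0.14 in the small subunit. Which reads with several possible places were counted is not given in the sources used here, and the part this plays in the low counts was not tested.

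**Figure D5:**
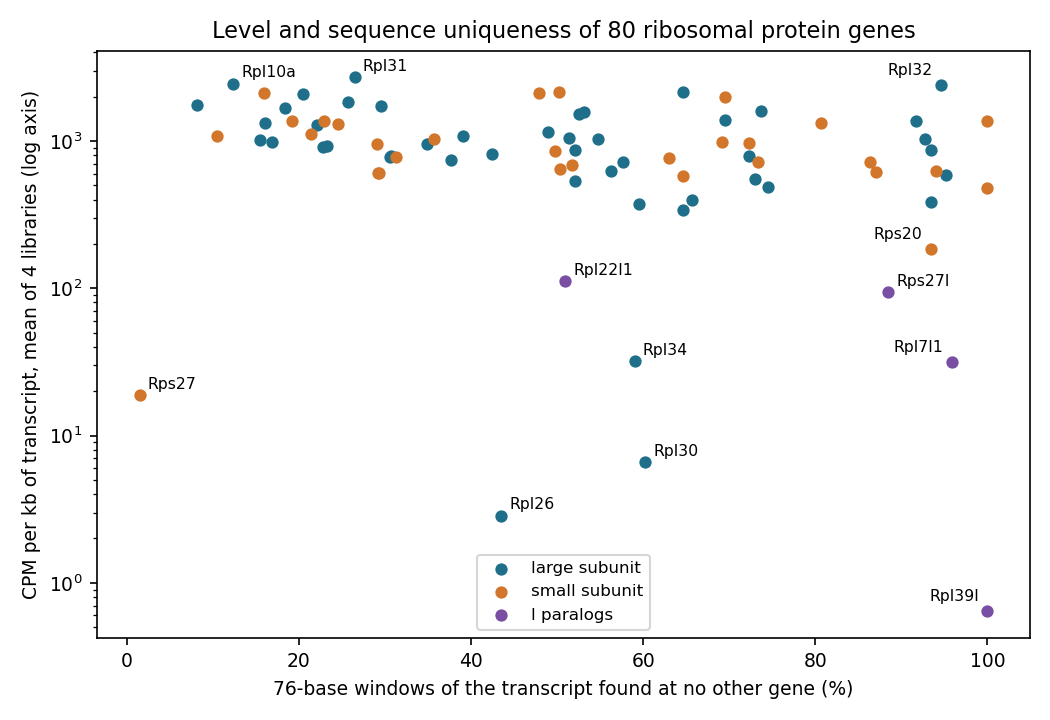
Mean level over the 4 libraries (CPM per kb of transcript, log axis) against the share of 76-base windows found at no other gene (percent) for the 80 members. Rps27 lies at the far left with 1.48% unique windows, while Rpl26, Rpl30 and Rpl34 lie low among genes with similar shares.

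Ribosomal proteins that the symbol rule does not take also held no call. None of the 7 tested genes of this kind passed. Rps3a1 was at 1887 and 1751 CPM in WT and at 1476 and 1488 CPM in KO (a log2 fold change of -0.30, adjusted p = 0.185), and Gnb2l1, the scaffold protein RACK1, was at 788 and 663 CPM in WT and at 627 and 559 CPM in KO (-0.29, adjusted p = 0.243). Rpl36al, at 282 and 255.9 CPM in WT and 251 and 181 CPM in KO, was not called either (-0.31). Rpl3l, a muscle form, stayed below 2 CPM in every library.

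Other mRNAs with a terminal oligopyrimidine tract held 3 lower genes among 18, and none higher (median -0.20). Npm1, a nucleolar chaperone of ribosome assembly, fell from 2462 and 2223 CPM in WT to 1522 and 1337 CPM in KO (a log2 fold change of -0.71, adjusted p = 0.013). Nap1l1, a histone chaperone, fell from 961 and 834 CPM to 528 and 510 CPM (-0.79, adjusted p = 0.009). Eef1g, a subunit of elongation factor 1, fell from 1392 and 1018 CPM to 801 and 688 CPM (-0.69, adjusted p = 0.032). The groups did not overlap for these genes, and none of the 3 passed without WT replicate 1. Ybx1, an mRNA-binding protein, was at 835 and 591 CPM in WT and at 509 and 348 CPM in KO (adjusted p = 0.052).

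None of 12 regulators of ribosomal protein synthesis passed (median -0.19). Rheb, the activator of mTOR, was at 63.8 and 57.8 CPM in WT and at 40.9 and 34.3 CPM in KO (a log2 fold change of -0.69, adjusted p = 0.059), while its inhibitor Tsc1 was at 55.2 and 47.0 CPM in WT and at 62.6 and 71.7 CPM in KO (0.39, adjusted p = 0.221). Rptor (0.27) and Eif4ebp2 (-0.21) were not called. Of 27 initiation factors, Eif4e, which binds the mRNA cap, fell from 143 and 104 CPM to 79.7 and 74.3 CPM (-0.69, adjusted p = 0.049), and 26 were not called (median -0.33). The call of Eif4e was lost without either WT library and without KO replicate 2 (adjusted p between 0.057 and 0.490), and with other size factors (adjusted p = 0.052 and 0.073). Eif3l (-0.60), Eif4a1 (-0.47) and Eif2s1 (-0.51) had adjusted p between 0.068 and 0.076.

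Of 11 chaperones and importers of ribosomal proteins, the importin Ipo5 fell from 321 and 255.9 CPM to 172 and 140 CPM (log2 fold change -0.88, adjusted p = 0.014, and 0.161 without WT replicate 1). The other 10 were not called (median of the list -0.45), among them Ipo9 (-0.57), Bccip (-0.76), which escorts Rpl23, and Heatr3 (-0.51), which carries Rpl5. Of 12 genes of p53 and its targets, 1 was called. The cell cycle inhibitor Cdkn1a was at 30.1 and 110 CPM in WT and at 14.8 and 20.7 CPM in KO (-1.98, adjusted p = 0.027). WT replicate 2 was far above the other libraries, and without it the call was lost (-0.78, adjusted p = 0.30), as it was in DESeq2 (adjusted p = 0.113). Trp53 (-0.62), Mdm4 (0.38) and Bax (-0.66) had adjusted p between 0.062 and 0.236.

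Genes of other cells and of proliferation differed between the groups. Of 26 cell cycle genes 21 were lower in KO and none higher (median -1.0), and their summed level was 6863 and 6785 CPM in WT and 4011 and 3859 CPM in KO. Top2a, the topoisomerase of dividing cells, had a log2 fold change of -1.12 (adjusted p = 0.001), and Tpx2 (-1.18), Bub1b (-1.14) and Ccnb2 (-1.28), which act in mitosis, were lower too. Of 10 B lineage markers 9 were lower, with summed levels of 503 to 590 CPM in WT and 83.9 to 115 CPM in KO.

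Several dendritic and mast cell markers were higher in KO. Of 10 dendritic cell markers 7 were higher, with sums of 143 to 145 CPM in WT and 874 to 1061 CPM in KO, and Batf3 was listed at 0 in both WT libraries. Of 8 mast cell markers 6 were higher (151 to 153 CPM in WT, 272 to 407 CPM in KO). Of 8 neutrophil markers 4 were higher and 1 was lower (1677 to 1707 CPM in WT, 1430.5 to 1723 CPM in KO, with overlap), and of 8 monocyte markers 2 were higher (413 to 444 CPM in WT, 538 to 619 CPM in KO). Of 4 tested erythroid markers 1 was higher (129 to 202 CPM in WT, 255 to 374 CPM in KO), and Hba-a1 and Hbb-bt were listed at 0 in every library. Of 6 megakaryocyte markers 2 were higher (480 to 525 CPM in WT, 642 to 651 CPM in KO). None of 4 T and NK cell markers or 7 stromal markers was called. The part of these cell types and of the lower cell cycle level in the ribosomal protein values was not tested.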

How the data were processed

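The table deposited by the authors gives unnormalised counts by gene symbol for 4 libraries, made from 20 ng of total RNA (NuGEN Ovation Ultralow) and 76 cycles on a NextSeq 500, per the labels' protocols. The submitters' processing notes name TopHat2 2.1.1, SAMtools 1.5, Picard 2.9.4, HTSeq 0.8.0 and the mm10 build. The annotation, the strand setting and the treatment of reads with several places are not stated in any source at hand, so reads of overlapping, antisense and near-identical genes cannot be told apart.

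The counts entered edgeR 4.0.16 (R 4.3.3) unchanged, with TMM factors, filterByExpr (minimum count 10, minimum total 15), quasi-likelihood test of KO against WT, adjusted over all genes tested. Ratios were compared with exact permutation tests over libraries. Symbols were matched to GENCODE M21 (23376 by name, 651 by synonym, 394 unmatched) for transcripts, GC content and windows of 76 bases shared with other genes. Start sites came from RefSeq. On simulated counts (13988 genes) the test called 13 of 100 genes set to change 2-fold, 89 of 100 set to change 4-fold and 8 unchanged genes. The simulation gave every gene the same dispersion, while the members had a median SE of 0.14 against 0.28 over all genes tested. These shares therefore do not give the chance of a call for the members. A count of 3 per library served as the detection limit and covers counting error only.

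The members, gene lists and alternatives were chosen with earlier results of these data known. Genes were named by rule: members past the threshold, the paralogs and their parents, the 5 largest fold changes in each direction, the 3 highest and lowest levels per subunit, the stalk, Rpl5, Rpl11 and X-linked members, and up to 4 genes with the smallest p of each other list. Markers, Rps15, Rps26, Cd34 and the pseudogenes were named after their values were seen. A gene is left out of the plot of fold changes and not reported here by name. The alternatives were other size factors, other count filters, DESeq2 1.42.0, the replicate number as a block, each library left out, Rn45s left out, pseudogene rows added to their members, trends on level or on length and GC removed, and 2 subsets of members chosen after seeing the data.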

Additional observations from a re-analysis of the deposited data

How the results depend on the processing

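The number of lower members was 3 with the settings used. It was 1 (Rpl7a) with upper quartile factors, 8 without a filter on low counts, 4 by DESeq2, and 0 to 15 with each library left out. Over all genes tested, 987 of 17659 were lower without a filter and 799 of 14975 were lower by DESeq2, beside 425 of 14140 with the settings used. The stricter filter, DESeq2's size factors in edgeR, Rn45s left out and added pseudogene rows gave the same 3 genes. Without a filter 1 member was higher, Rpl39l, whose fitted fold change rests on a WT level of 0. Rpl15 and Rpl28 missed the threshold with upper quartile factors (adjusted p = 0.067 and 0.060). Upper quartile factors changed the calls over all genes from 533 higher and 425 lower to 664 higher and 289 lower and the median over all genes from 0.02 to 0.10. With each library left out, the subunit medians were -0.28 to -0.11 for the large and -0.22 to -0.02 for the small subunit. Without KO replicate 2 they were -0.11 and -0.02, beside -0.01 over all genes. Without KO replicate 1 they were -0.28 and -0.22, beside 0.0006 over all genes. With the trend on expression level removed the subunit medians were -0.0070 and 0.087. The difference in the large to small ratio was 0.11 with the median over members. The cause of these changes was not tested. Rps27l, which was never called, had fold changes of -0.17 to 0.30 with each library left out, with -0.17 and -0.13 without WT replicate 2 and KO replicate 1. In these 2 cases the Rpl7l1 to Rpl7 difference was -0.042 and -0.032, in a range of -0.042 to 0.10. Other genes near 0 changed sign without a call. Rps3 was at 0.081 with upper quartile factors, 0.028 with the stricter filter and 0.00047 with the replicate block, and Rps25 at 0.077 and 0.023 with the first 2 of these. With each library left out, Rps3 ranged from -0.063 to 0.044, Rps25 from -0.081 to 0.054, Rpl12 from -0.013 to 0.27, Rplp0 from -0.042 to 0.19, Rpl5 from -0.028 to 0.065, and Rpl3l, which had few reads, from -4.24 to 0.094. With the replicate block 14 members were lower, including the 3 above, and over all genes 1312 were higher and 1314 lower. The labels give the numbers 1 and 2 in both groups, but deviations of same-numbered libraries correlated at 0.09 across 14140 genes, 0.25 across the 3634 genes and 0.42 across the 72 members with at least 1000 reads in every library (Pearson). With 2 pairs and no label that ties the numbers to a shared animal or batch, whether the libraries were paired cannot be settled here. Leaving out a library leaves 1 in its group, which is then assumed to vary like the others. The smallest change called among the members was -0.53 (Rpl15). For 76 members the counts do not show that the level was the same, only that no change passed at this depth.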
